A study of Mus musculus with 20 samples.

Results

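Glycolysis was followed here through 30 genes chosen by symbol: the glucose carriers Slc2a1, Slc2a3 and Slc2a6, the enzymes from hexokinase to lactate dehydrogenase by isoform, the PFKFB enzymes that set the level of fructose 2,6-bisphosphate, and the lactate carriers Slc16a1 and Slc16a3 with their partner Bsg. The rule used gene names, though the members were chosen with earlier results of these data known. All 30 were listed and tested in both deposited tables, beside 26099 genes listed in the acute table and 26486 in the survival table. RNA came from spleens of sub-lethally irradiated mice carrying a transplanted T-cell acute lymphoblastic leukemia whose Acly gene can be deleted with tamoxifen. Acly encodes ATP-citrate lyase, which makes cytosolic acetyl-CoA from citrate. For the acute arm, corn oil alone (control, 6 libraries) or 3 mg of tamoxifen in corn oil (knockout, 4 libraries) was injected once leukemia was overt, with spleens collected after 72 h. For the survival arm, corn oil (control, 5 libraries) or the same tamoxifen dose (knockout, 5 libraries) was given 48 h after the transplant, with spleens collected when the humane endpoint was reached. Controls carried the same conditional leukemia without tamoxifen, so the drug and the deletion cannot be told apart, and the labels name neither the Cre driver nor the number of donor leukemias. Separate mice per library are not stated, and the p-values measure only the spread between libraries.

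Glycolysis splits glucose into pyruvate in the cytosol. Glucose enters through SLC2A (GLUT) carriers and is trapped as glucose 6-phosphate by hexokinases, phosphofructokinase commits it to the pathway under the control of fructose 2,6-bisphosphate, and lactate dehydrogenase turns pyruvate into lactate, which leaves through SLC16A (MCT) carriers. Most steps have several isoforms whose use differs between cell types: activated and leukemic T cells rely on SLC2A1 and SLC2A3, HK1 and HK2, and SLC16A1, while HK3 is a hexokinase of myeloid cells and SLC16A3 is the lactate exporter of strongly glycolytic cells, neutrophils and activated macrophages among them. In T-cell leukemia, pyruvate from glycolysis also feeds the mitochondrial citrate on which ATP-citrate lyase acts.

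Acly itself was checked first. Acute controls held 7406 to 8280 normalized counts (median 7633), and the 4 knockouts held 5226, 6228, 6402 and 4823. Every knockout lay below every control, and the fall was 0.46 on the log2 scale (log2 change -0.46, SE 0.0747, limma adjusted p = 0.000866), leaving 73.3% of the control mean. In the survival arm controls held 7922, 7758, 7396, 7544 and 8825, and knockouts held 4017, 2174, 3523, 3025 and 2718, which is 39.2% of control (log2 change -1.38, SE 0.131, limma adjusted p = 0.0016). Acly transcript thus remained in all knockout libraries. Which cells of the spleen it came from was not tested, so the extent of deletion in the leukemic cells is not known from it. The acute fall was -0.089 (limma adjusted p = 0.639) when each library was scaled to its summed T-cell receptor beta genes, and -0.78 (limma adjusted p = 0.771) with a score of non-T-cell markers as a covariate.

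The spleen suspensions were not sorted, as far as the labels say, and lists of cell type markers describe what else they held. Totals were 19432235 to 21623571 normalized counts per library. Of 24 T-cell and thymocyte genes none was at 0 in any library, and their summed level was 273881 to 283290 in acute controls and 184404 to 246154 in acute knockouts, with 20 of 24 genes lower. Markers of other cells were higher in the acute knockouts: 18 of 18 neutrophil genes (sum 12555 to 51645 in controls and 186078 to 626436 in knockouts), 19 of 20 monocyte and macrophage genes (6839 to 10939 against 29520 to 86461), 15 of 16 B-cell genes (1437 to 2641 against 3270 to 7539), 5 of 7 plasma-cell genes tested (3742 to 4438 against 5855 to 9202) and 4 of 8 dendritic genes tested (175 to 283 against 366 to 907). The NK and cytotoxic list had 8 higher and 1 lower of 9 tested although its sum, 6655 to 8585 in controls and 6545 to 7241 in knockouts, overlapped. The stroma and endothelium list had 2 of 10 higher (4479 to 7331 against 5012 to 5520) and the erythroid list 0 of 18 (19548 to 35161 against 18218 to 57520). No neutrophil, monocyte, B-cell, erythroid or T-cell marker was at 0 in an acute library, while Tnfrsf17, Klre1, Klra8, Klrd1, Clec10a, Siglech, Kdr and Lyve1 of the other lists given here were at 0 in some. The score, the mean log2 level of the non-T-cell markers, was 6.23 to 7 in acute controls and 7.83 to 8.95 in acute knockouts, where knockouts 2 and 3 had the highest scores. The part of these markers in the changes of the glycolysis genes was not tested beyond the values given below, and in a bulk library fewer cells of a type and less RNA per cell cannot be told apart.

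In the acute arm 10 of the 30 glycolysis genes rose and 6 fell as deposited. Isoforms changed unlike each other among the glucose carriers, hexokinases, PFKFB enzymes and lactate carriers. Ldha and Ldhb fell alike, and the ratios among phosphofructokinase, aldolase, enolase and lactate dehydrogenase isoforms did not pass their test (below). Hk3 (12.3-fold by the means), Slc16a3 (8.28-fold) and Pfkfb4 (7.76-fold) rose most, followed by Hk2 and Slc2a3, both over 2-fold. Slc2a6 was also called higher, but it entered the test through the knockouts and its call was lost without knockouts 2 and 3. Gpi1, Aldoa, Pgam1 and Pfkfb3 rose by less, and Slc16a1, Tpi1, Bpgm, Ldhb, Pfkm and Ldha fell to 73.2 to 87.0% of control as deposited, 5 of them turning to log2 changes of 0.0021 to 0.17 after T-cell receptor beta scaling. Among all 16363 genes tested 16.7% were called higher and 14.7% lower, beside 33.3% and 20% of the members. The members were chosen with earlier results of these data known, so no excess over all genes is read from these shares. The median log2 change of the members was -0.013 and that of all genes -0.023. Calls were made by limma on log2(normalized count + 1) at a Benjamini-Hochberg adjusted p under 0.05 over all genes.

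**Figure D1:**
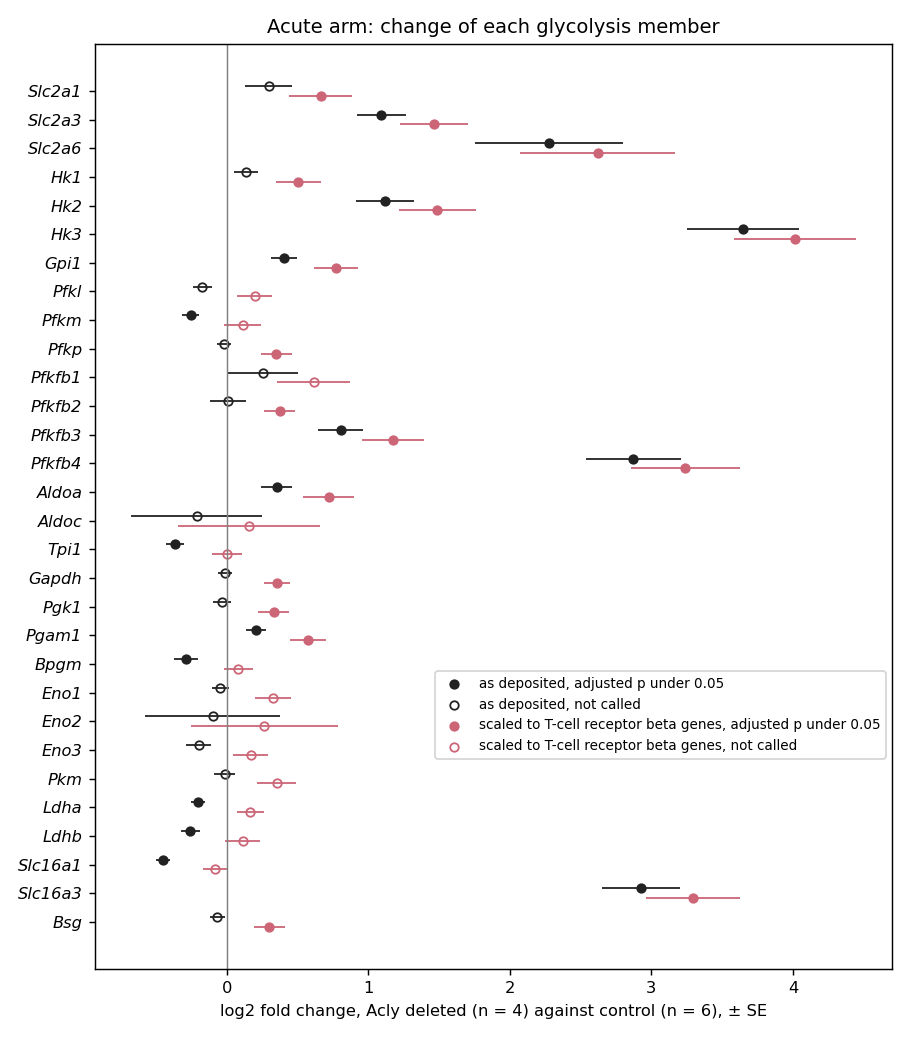
Acute knockout minus control for the 30 glycolysis genes, as the log2 change with its standard error (x axis, log2 scale), ordered along the pathway (y axis), as deposited and with libraries scaled to their T-cell receptor beta RNA. Hk3, Slc16a3, Pfkfb4 and Slc2a6 lie beyond 2 on either scale, and the points below 0 move to about 0 or above after the scaling, with Slc16a1 still lowest at -0.08.

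Which genes were called lower depended on how libraries were made comparable. T-cell receptor beta RNA, summed, was 54728 ± 3059 (SD, n = 6) in acute controls and 42658 ± 6037 (n = 4) in acute knockouts. Scaling to it moved the median of all genes by 0.37 (log2), called 42.5% of all genes higher and 0.593% lower, and called 17 members higher and 0 lower, with 98.6% of all calls upward instead of 53.1%. Quantile normalization moved that median by -0.16 and called 14.2% of all genes higher and 25.3% lower, with 10 members higher and 8 lower and 35.9% of all calls upward. The additional members lower there were Pfkl (-0.20, limma adjusted p = 0.0299) and Eno3 (-0.44, limma adjusted p = 0.0074). Without knockouts 2 and 3, 8.04% of 17248 genes were called higher and 4.02% lower, with 7 members higher and 4 lower. With the non-T-cell marker score as a covariate limma called 0% of genes in either direction (989 genes and 2 members at an unadjusted p under 0.05), and no member was called.

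Of the glucose carriers, Slc2a3 and Slc2a6 rose and Slc2a1 did not pass the test. Slc2a3 encodes GLUT3, a high-affinity carrier of lymphocytes, neurons and granulocytes. Its level was 987 to 1050 normalized counts (median 1004) in acute controls and 1518, 3384, 2403 and 1738 in the knockouts, so the groups were well apart and the controls were tight. The log2 change was 1.09 (SE 0.171, limma adjusted p = 0.000661), and 0.69 without knockouts 2 and 3 (limma adjusted p = 0.00014). Slc2a6, a sugar carrier of lysosomes in macrophages, was rare: 2.21 to 25.9 (median 12.1) in controls and 46.1, 87.4, 55.9 and 35.8 in knockouts. It reached the minimum of 10 in 3 of 6 controls and in all 4 knockouts, and so entered the test through the knockouts. Its log2 change was 2.28 (SE 0.524, limma adjusted p = 0.00655), and 1.89 without knockouts 2 and 3, no longer past the threshold (limma adjusted p = 0.105). Slc2a1 encodes GLUT1, the main carrier of proliferating T cells. It was at 272 to 363 (median 311) in controls and 280, 558, 414 and 344 in knockouts, with knockouts 1 and 4 inside the control range and knockouts 2 and 3 above it. Its log2 change of 0.30 did not pass (SE 0.168, limma adjusted p = 0.209), but did without knockout 1 (0.45, limma adjusted p = 0.0407) and after T-cell receptor beta scaling (0.66, limma adjusted p = 0.0302).

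**Figure D2:**
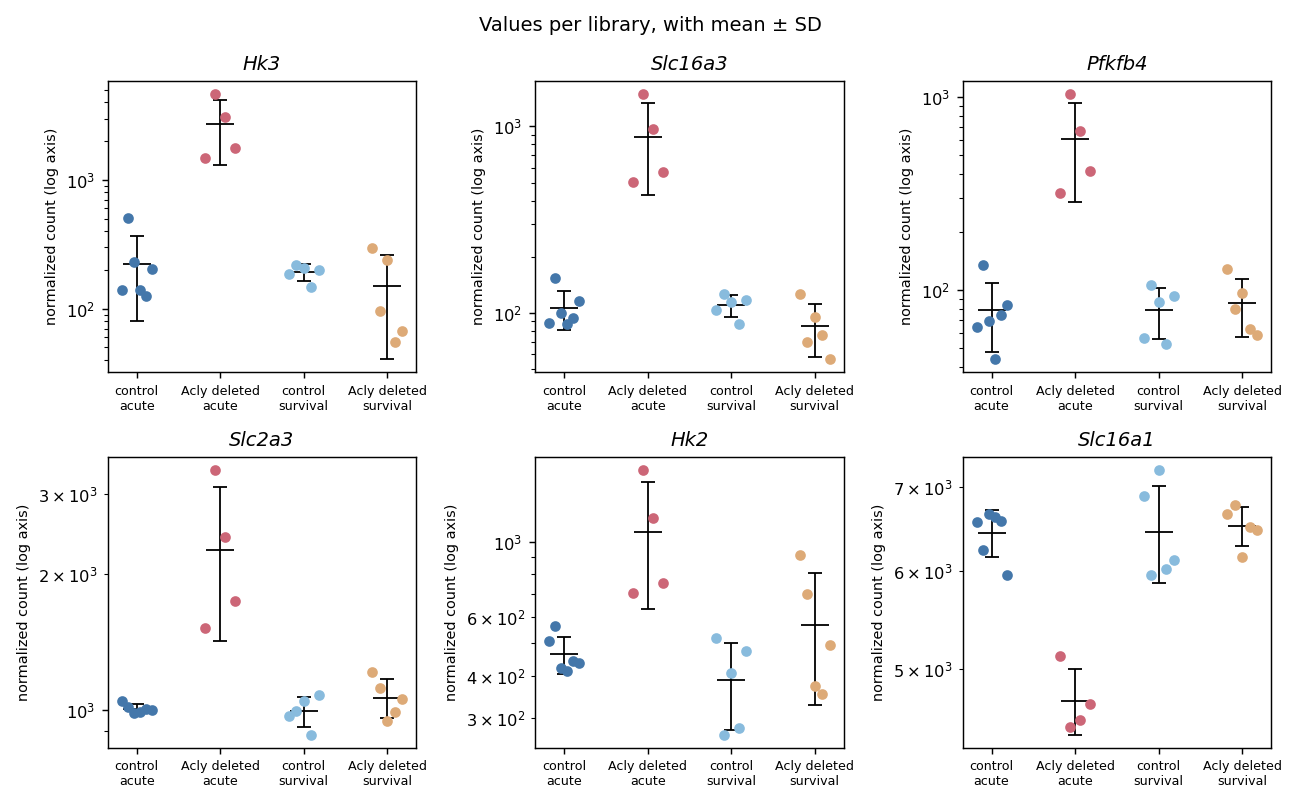
Normalized counts (y axis, log scale) of 6 members in each library of the 4 groups, with the group mean and SD. The acute knockouts lie apart from acute controls in the panels of Hk3, Hk2, Slc2a3, Pfkfb4, Slc16a3 and Slc16a1, while the survival groups overlap in each.

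The 3 hexokinases did not move alike. Hk1, the widely expressed isoform bound to mitochondria, was at 4255 to 4783 (median 4452) in acute controls and 4377, 5722, 5522 and 4216 in knockouts, with knockouts 2 and 3 above all controls and the other pair within or below them. Its log2 change of 0.14 did not pass (SE 0.0839, limma adjusted p = 0.24), except after T-cell receptor beta scaling (0.51, limma adjusted p = 0.0224). Hk2, the inducible isoform of growing cells, was at 413 to 562 (median 440) in controls and 703, 1631, 1178 and 752 in knockouts. All knockouts were above all controls (log2 change 1.12, SE 0.203, limma adjusted p = 0.00164; 0.65 without knockouts 2 and 3, limma adjusted p = 0.00457). Hk3 was at 126 to 503 (median 171) in controls and 1482, 4634, 3078 and 1760 in knockouts. Control 2, at 503, was far above the other controls, and the lowest knockout was still above it. The log2 change of Hk3 was 3.65 (SE 0.397, limma adjusted p = 6.22e-05), the largest of the 30, and 3.03 without knockouts 2 and 3 (limma adjusted p = 0.000983).

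The 250 bases before the first listed RefSeq start are shown for the isoform that rose most and the isoform that did not pass. They show what precedes that start (GRCm38.p6, a build other than the authors', minus strand for both, 5′ to 3′). Hk1 is at chr10:62379909-62380158 and Hk3 at chr13:55021386-55021635. Capitals mark matches on either strand to ACGTG, the core of the hypoxia response element, CACGTG, the E-box bound by MYC and MAX, which holds that core, and GAGGAA, a core of the PU box bound by the myeloid factor PU.1.
Hk1: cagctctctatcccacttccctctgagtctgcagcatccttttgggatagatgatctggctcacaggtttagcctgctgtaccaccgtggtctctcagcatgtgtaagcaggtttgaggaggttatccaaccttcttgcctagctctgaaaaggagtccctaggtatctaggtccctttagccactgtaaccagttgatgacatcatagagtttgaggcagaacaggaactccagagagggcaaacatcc
Hk3: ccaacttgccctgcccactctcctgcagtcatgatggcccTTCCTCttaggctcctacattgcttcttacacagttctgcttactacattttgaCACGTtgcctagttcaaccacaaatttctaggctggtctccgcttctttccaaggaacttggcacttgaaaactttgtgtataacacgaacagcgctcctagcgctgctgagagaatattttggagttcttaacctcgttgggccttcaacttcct
Hk3 held a PU box match 210 bases and a hypoxia core match 156 bases before that start, and Hk1 held none of the 3 motifs. Only 1 start per gene was searched, and Hk1 has 18 protein-coding transcripts in GENCODE M21. Which start these cells use is not known. RefSeq promoter entries were found for 28 of the 30 members. ACGTG occurred in 11 of them (39.3%: Hk2, Hk3, Ldha, Pfkfb2, Pfkfb3, Pfkm, Pgam1, Pgk1, Slc16a1, Slc16a3 and Slc2a1) and in 16.6% of all 27025 promoter windows of that length. CACGTG occurred in 4 (14.3%: Ldha, Pfkfb2, Pfkm and Slc16a1) against 6.05% of all, and GAGGAA in 6 (21.4%: Aldoa, Aldoc, Bpgm, Hk3, Pfkm and Pgam1) against 23.1%. Members that rose and members that fell both stand among those with ACGTG. A match describes the letters and does not show that a factor binds there.

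Further along the upper part of the pathway, Gpi1 rose, 1 of 3 phosphofructokinases fell as deposited, and 2 of 4 PFKFB enzymes rose. Gpi1 turns glucose 6-phosphate into fructose 6-phosphate and was at 10536 to 11235 (median 10706) in acute controls and 12744, 18018, 14794 and 12130 in knockouts. Each knockout was above each control (log2 change 0.40, SE 0.0897, limma adjusted p = 0.00534), with 0.21 left without knockouts 2 and 3 (limma adjusted p = 0.0154). The muscle-type phosphofructokinase Pfkm fell from 1252 to 1455 (median 1277) to 1031, 1155, 1145 and 1046, a log2 change of -0.25 (SE 0.0583, limma adjusted p = 0.00646) that turned to 0.11 after T-cell receptor beta scaling. The liver-type Pfkl, at 2276 ± 78.8 (SD, n = 6) in controls and 2030 ± 225 (n = 4) in knockouts, did not pass (-0.17, SE 0.067, limma adjusted p = 0.0723). It did pass without knockout 1 (-0.21, limma adjusted p = 0.0465) or without knockout 2 (-0.22, limma adjusted p = 0.0424). The platelet-type Pfkp overlapped fully, at 2118 ± 68.7 and 2092 ± 136 (log2 change -0.02, limma adjusted p = 0.806; 0.35 after T-cell receptor beta scaling, limma adjusted p = 0.023).

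PFKFB enzymes make and break fructose 2,6-bisphosphate, the strongest activator of phosphofructokinase. Pfkfb3, the isoform with the highest kinase activity, was at 332 to 487 (median 403) in acute controls and 572, 988, 742 and 620 in knockouts, all above controls (log2 change 0.80, SE 0.157, limma adjusted p = 0.00247; 0.54 without knockouts 2 and 3, limma adjusted p = 0.0366). Pfkfb4 was at 44.1 to 135 (median 72.1) in controls and 318, 1038, 673 and 414 in knockouts. Its log2 change was 2.87 (SE 0.336, limma adjusted p = 9.53e-05), or 2.27 without knockouts 2 and 3 (limma adjusted p = 0.0011). Pfkfb2, the heart-type isoform, overlapped at 238 ± 26.3 (SD, n = 6) and 241 ± 40.5 (n = 4). Pfkfb1, the liver-type isoform, stayed near the limit of measurement at 26.7 ± 8.07 and 31.1 ± 3.82. Neither passed the test (limma adjusted p = 0.974 and 0.477), and after T-cell receptor beta scaling Pfkfb2 did (0.37, limma adjusted p = 0.0153).

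The most abundant enzymes of the lower pathway did not pass the test as deposited. Gapdh, which makes NADH and the first energy-rich phosphate, was at 38293 ± 2012 (SD, n = 6) in acute controls and 37967 ± 1522 (n = 4) in knockouts. Pgk1, which makes the first ATP, was at 9409 ± 713 and 9174 ± 647, and Eno1, the main enolase, at 15751 ± 424 and 15326 ± 1525. Pkm, pyruvate kinase, was at 27704 ± 1037 and 27575 ± 3499. All 4 overlapped between groups, with log2 changes of -0.01, -0.04, -0.04 and -0.01 (limma adjusted p = 0.894, 0.72, 0.619 and 0.906). After T-cell receptor beta scaling they were 0.36, 0.33, 0.32 and 0.35, close to the shift of all genes, and Gapdh and Pgk1 passed the threshold (limma adjusted p = 0.0101 and 0.0295).

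Around them, Aldoa and Pgam1 rose, and Tpi1 and Bpgm fell as deposited but not after T-cell receptor beta scaling. Aldoa, the ubiquitous aldolase that splits fructose 1,6-bisphosphate, was at 5683 to 6304 (median 6241) in acute controls and 6775, 10228, 8531 and 6373 in knockouts. The 4 knockouts were above the controls, knockout 4 by little (log2 change 0.35, SE 0.109, limma adjusted p = 0.0276). The call of Aldoa was lost without control 3 (0.33, limma adjusted p = 0.0565), without knockout 2 (0.22, limma adjusted p = 0.0646) and without knockout 3 (0.31, limma adjusted p = 0.0876). Pgam1, which moves the phosphate of 3-phosphoglycerate, was at 4971 to 5679 (median 5532) in controls and 5972, 7269, 6476 and 5553 in knockouts, with knockout 4 inside the control range (log2 change 0.21, SE 0.069, limma adjusted p = 0.0392). It lost its call without control 1, 2, 3, 5 or 6 or without knockout 2 or 3 (log2 change 0.14 to 0.22, limma adjusted p = 0.053 to 0.122). Without both knockouts 2 and 3 the log2 change was 0.098 for Aldoa (limma adjusted p = 0.29) and 0.08 for Pgam1 (limma adjusted p = 0.46).

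Tpi1 interconverts the triose phosphates. It was at 6269 to 7317 (median 6732) in acute controls and 5687, 5337, 5247 and 4683 in knockouts, each below all controls, a log2 change of -0.37 (SE 0.0617, limma adjusted p = 0.00103) that was 0.0021 after T-cell receptor beta scaling. Bpgm makes 2,3-bisphosphoglycerate, best known from red cells. It was at 941 to 1271 (median 990) in controls and 849, 758, 881 and 864 in knockouts, a log2 change of -0.29 (SE 0.0842, limma adjusted p = 0.0217) that was 0.08 after T-cell receptor beta scaling. Without knockout 2 the call of Bpgm was lost (-0.24, limma adjusted p = 0.073). The minor isoforms Aldoc and Eno2, both known from brain, and Eno3, known from muscle, did not pass: Aldoc was at 103 to 766 (median 159) in controls against 127 to 237 in knockouts, Eno2 at 44.3 to 322 (median 65.9) against 60.4 to 136, and Eno3 at 211 to 255 (median 231) against 192 to 223. The highest value of both Aldoc and Eno2 came from control 1, and in the survival arm both were highest in control 4 (294 and 138).

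At the end of the pathway, both lactate dehydrogenase subunits were lower in the acute knockouts as deposited. Ldha, the subunit that favours lactate production, was at 19736 to 22227 (median 21132) in controls and 19245, 18621, 17841 and 17181 in knockouts. All knockouts were below all controls, a log2 change of -0.20 (SE 0.05, limma adjusted p = 0.00993) that turned to 0.17 after T-cell receptor beta scaling. Ldhb, the subunit of oxidative tissues, was at 1838 to 2225 (median 1914) in controls and 1631, 1493, 1852 and 1577 in knockouts, with knockout 3 above the lowest control, a log2 change of -0.26 (SE 0.0698, limma adjusted p = 0.0157) that turned to 0.11 after that scaling. Without knockout 2 Ldhb no longer passed (-0.21, limma adjusted p = 0.0548), and without both knockouts 2 and 3 Ldha did not (-0.20, limma adjusted p = 0.0676).

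The lactate carriers moved in opposite directions as deposited. Slc16a1 encodes MCT1, the carrier of proliferating lymphocytes, and was at 5954 to 6657 (median 6571) in acute controls and 5124, 4493, 4550 and 4688 in knockouts. The gap between the groups was wider than either group, with a log2 change of -0.45 (SE 0.05, limma adjusted p = 7.1e-05) as deposited and -0.08 after T-cell receptor beta scaling (limma adjusted p = 0.448). Slc16a3 encodes MCT4, the exporter of strongly glycolytic cells, and was at 87.4 to 154 (median 96.6) in controls and 500, 1486, 969 and 569 in knockouts. Its log2 change was 2.93 (SE 0.275, limma adjusted p = 3.84e-05), or 2.34 without knockouts 2 and 3 (limma adjusted p = 0.000133). Bsg (basigin, CD147), which escorts both carriers to the cell surface, overlapped at 4763 ± 234 (SD, n = 6) and 4550 ± 266 (n = 4) (log2 change -0.07, limma adjusted p = 0.371; 0.30 after T-cell receptor beta scaling, limma adjusted p = 0.0402). The 250 bases before the first listed starts of the carriers that moved apart are shown with the same capitals (RefSeq, GRCm38.p6, plus strand). Slc16a1 is at chr3:104638414-104638663 and Slc16a3 at chr11:120948817-120949066.
Slc16a1: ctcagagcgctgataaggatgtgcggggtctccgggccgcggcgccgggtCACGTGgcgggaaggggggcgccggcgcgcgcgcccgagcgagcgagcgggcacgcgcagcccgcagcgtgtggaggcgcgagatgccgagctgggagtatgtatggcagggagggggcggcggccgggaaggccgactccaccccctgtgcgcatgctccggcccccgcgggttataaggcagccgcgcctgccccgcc
Slc16a3: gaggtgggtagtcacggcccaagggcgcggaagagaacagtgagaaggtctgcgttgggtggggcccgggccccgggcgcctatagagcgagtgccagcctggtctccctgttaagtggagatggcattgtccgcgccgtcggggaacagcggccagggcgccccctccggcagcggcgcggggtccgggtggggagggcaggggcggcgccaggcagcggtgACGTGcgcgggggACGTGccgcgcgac
Slc16a1 held an E-box 200 bases before its start, whose letters also give a hypoxia core match on each strand. Slc16a3 held hypoxia core matches 27 and 14 bases before its start and no E-box, and neither window held GAGGAA.

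Isoforms were also compared within each library, as the log2 ratio of (normalized count + 1), for 13 pairs in each arm (two-sided exact permutation of the library labels, adjusted over all 26). In the acute arm 6 ratios were higher and 1 lower in the knockouts. The log2 ratio of Hk3 to Hk1 was -5.09 to -3.17 in controls and -1.56, -0.30, -0.84 and -1.26 in knockouts, a difference of 3.51 with no overlap. That of Slc16a3 to Slc16a1 was -6.23 to -5.33 in controls and -3.35, -1.60, -2.23 and -3.04 in knockouts, a difference of 3.38. A factor applied to a whole library cancels in such a ratio apart from the pseudocount, which weighs most on the rare Slc2a6. Pfkfb4 to Pfkfb3 differed by 2.07, Slc2a6 to Slc2a1 by 1.98 (1.38 with a pseudocount of 8), Hk2 to Hk1 by 0.98 and Slc2a3 to Slc2a1 by 0.80, each with every knockout above every control. Slc2a6 was at 2.21 to 25.9 normalized counts in acute controls, so its ratio rests on low values there. The exact permutation p was 0.00476, the smallest that 210 arrangements give (adjusted 0.0248), except for Slc2a6 to Slc2a1 (0.0143, adjusted 0.0464). The call of Slc2a6 to Slc2a1 was lost without control 1, 3, 4, 5 or 6 or without any 1 knockout (adjusted exact p = 0.0516 to 0.177). Pfkfb2 to Pfkfb3 was lower by 0.80 with overlapping groups (exact p = 0.0143, adjusted 0.0464). The other 6 pairs, Pfkm and Pfkp to Pfkl, Aldoc to Aldoa, Eno2 and Eno3 to Eno1 and Ldhb to Ldha, did not pass, with differences from -0.56 to 0.15. With 1 library left out fewer arrangements remain, and the count of higher ratios was 0 without knockout 2, 3 or 4, and the lower ratio was lost without any 1 control or without knockout 2, 3 or 4.

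**Figure D3:**
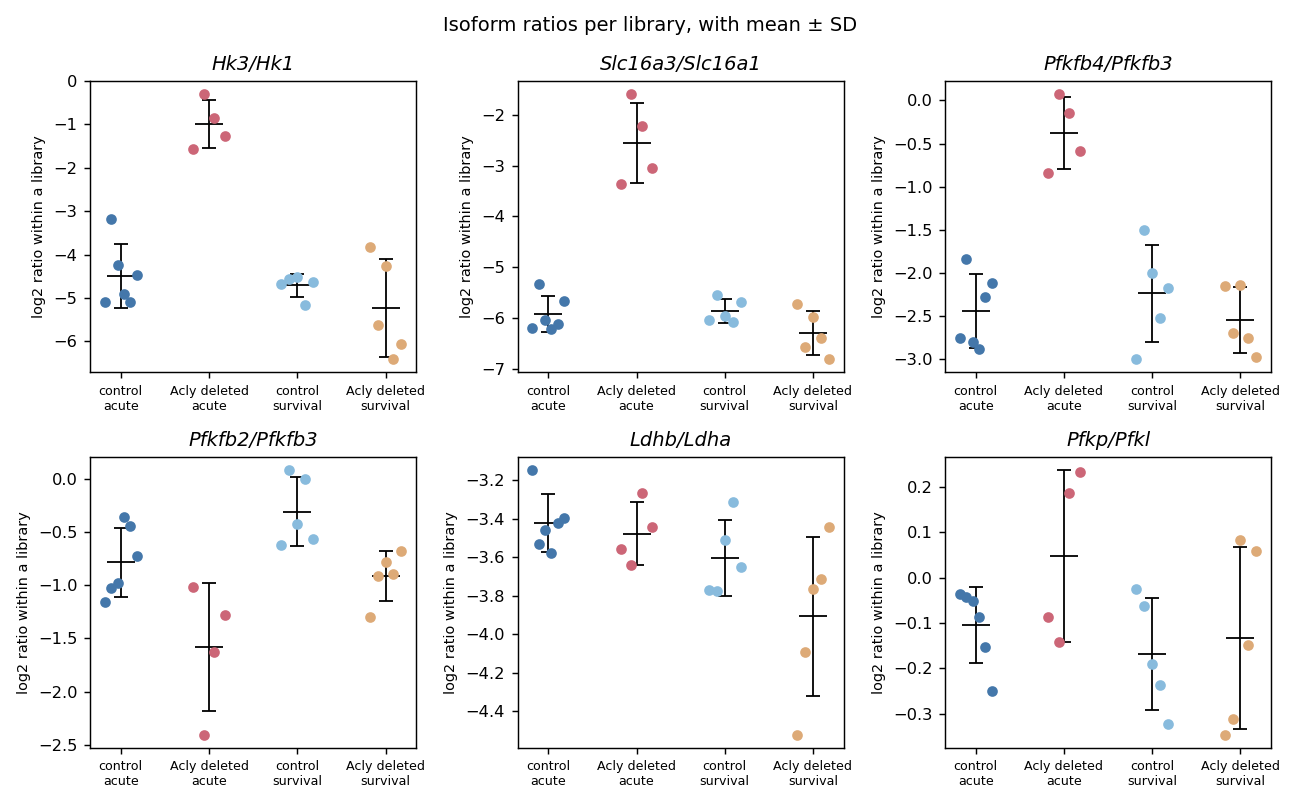
Log2 ratio of isoforms within each library (y axis) for pairs of members, by group (x axis), with points for libraries and the group mean with its SD. Acute knockouts lie above acute controls for Hk3 to Hk1 and Slc16a3 to Slc16a1, and the survival knockouts lie below their controls for Pfkfb2 to Pfkfb3.

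At the humane endpoint 0 of the 30 glycolysis genes were called, and knockout and control libraries overlapped in all 30. The share of all genes whose groups overlapped was not counted, so the overlap is not read as a trait of the members. Among all 16136 genes tested, 1 was called higher and 1 lower, which is 0.0062% each. At an unadjusted p under 0.05 limma gave 3 members, 1 higher and 2 lower, against 8.74% of all genes. Those were Pfkfb3 (455, 302, 349, 309 and 427 in controls against 576, 525, 431, 431 and 470 in knockouts, log2 change 0.41, SE 0.13, limma adjusted p = 0.338), Hk1 (-0.13, limma adjusted p = 0.488) and Ldhb (1685, 1662, 1863, 1955 and 1879 against 1076, 1307, 1487, 1706 and 1763, log2 change -0.32, SE 0.118, limma adjusted p = 0.422). The standard errors of the members, 0.0519 to 0.555, were like those of the acute arm, 0.0495 to 0.524. The adjustment over all genes was stricter in the survival arm. There an unadjusted limma p of 0.00732 (Pfkfb3) was adjusted to 0.338, while in the acute arm 0.00706 (Aldoa) was adjusted to 0.0276 and called. The 4 members with the largest acute log2 rise had survival log2 changes of -0.66 (Hk3), -0.41 (Slc16a3), 0.11 (Pfkfb4) and 0.51 (Slc2a6), none called. Of these, Slc2a6 had entered the acute test through the knockouts.

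One isoform ratio of the 13 differed in the survival arm. The log2 ratio of Pfkfb2 to Pfkfb3 was -0.63, 0.08, -0.43, -0.0033 and -0.57 in controls and -1.30, -0.92, -0.78, -0.89 and -0.68 in knockouts. All 5 knockouts were below all 5 controls, by 0.61 on average (exact permutation p = 0.00794, the smallest that 252 arrangements give, adjusted 0.0344). Leaving out control 2 or any 1 knockout gave adjusted exact p values of 0.0516 to 0.0774. The same ratio was the lower one in the acute arm, where the groups overlapped. Apart from this ratio, every survival ratio overlapped between the groups.

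The survival change less the acute change was tested over all 20 libraries, each change taken within its own table. Of all 15673 genes tested, 9.39% had a higher and 10.9% a lower survival change. Among the members 1 was higher and 5 lower. Slc16a3 differed by -3.34 (SE 0.357, limma adjusted p = 9.32e-06), Hk3 by -4.30 (SE 0.613, limma adjusted p = 5.94e-05), Pfkfb4 by -2.77 (SE 0.447, limma adjusted p = 0.000192), Slc2a3 by -0.995 (SE 0.198, limma adjusted p = 0.00127) and Gpi1 by -0.45 (SE 0.111, limma adjusted p = 0.00679). Slc16a1 differed by 0.47 (SE 0.0795, limma adjusted p = 0.000286), its change being -0.45 in the acute and 0.02 in the survival arm, but by -0.0091 after T-cell receptor beta scaling. The differences of Hk2 (-0.63, limma adjusted p = 0.241), Slc2a6 (-1.77, limma adjusted p = 0.131), Pfkfb3 (-0.39, limma adjusted p = 0.207) and Aldoa (-0.42, limma adjusted p = 0.0531) did not pass, so a difference between the arms was not shown for them. Aldoa did pass without acute knockout 1 (-0.49, limma adjusted p = 0.0262), acute knockout 4 (-0.52, limma adjusted p = 0.0151) or survival knockout 1 (-0.49, limma adjusted p = 0.0234). Hk1, which did not pass (-0.27, limma adjusted p = 0.0622), passed without acute knockout 1 (-0.33, limma adjusted p = 0.0233) or acute knockout 4 (-0.34, limma adjusted p = 0.0127). The count of higher differences was 2 when Tpi1 joined without acute knockout 1 (0.32, limma adjusted p = 0.0411) or survival knockout 5 (0.33, limma adjusted p = 0.0249), and when Eno3 joined without survival control 1 (0.47, limma adjusted p = 0.0294) or survival knockout 4 (0.46, limma adjusted p = 0.0355). Gpi1 did not pass without acute knockouts 2 and 3 (-0.26, limma adjusted p = 0.0616).

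**Figure D4:**
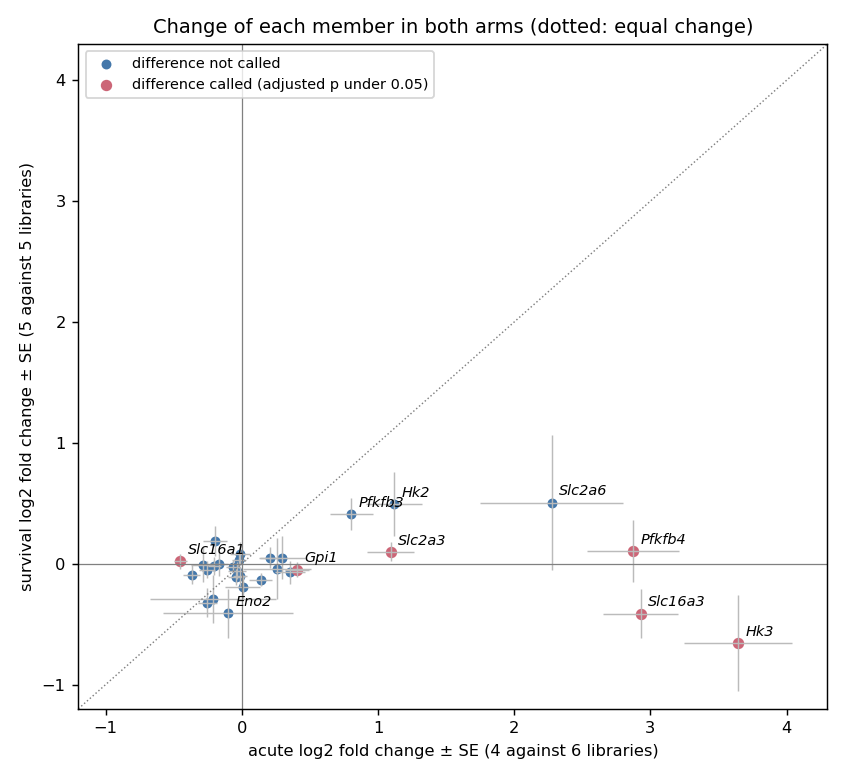
Log2 change of each of the 30 members in the acute arm (x axis) and in the survival arm (y axis), with the members whose changes differed between the arms marked. Hk3, Slc16a3 and Pfkfb4 lie at 2.87 or more on the x axis and between -0.66 and 0.11 on the y axis.

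Levels of Hk3 and Slc16a3 are set here beside the summed neutrophil markers of the same library. In acute knockouts 1 to 4 the marker sums were 186078, 626436, 381191 and 223934, with Hk3 at 1482, 4634, 3078 and 1760 and Slc16a3 at 500, 1486, 969 and 569. Knockout 2 was highest and knockout 1 lowest in all 3. This was not particular to them: the monocyte and macrophage sums and the B-cell sums had it too, while the plasma-cell sum was highest in knockout 3. Slc2a1, Slc2a3, Hk2, Pfkfb3 and Pfkfb4 also had it, while Hk1, Gpi1 and Slc2a6 were lowest in knockout 4. Among acute controls, control 2 had the highest neutrophil sum (51645), the highest Hk3 (503) and the highest Slc16a3 (154). Control 2 also had the highest monocyte and macrophage sum and the highest B-cell sum. In the survival knockouts the sums were 32244, 2951, 26955, 8209 and 2902, with Hk3 at 297, 95.8, 237, 55.5 and 66.5 and Slc16a3 at 126, 70.2, 95.6, 75.9 and 56.8. Knockouts 1 and 3, the highest for the markers, were also the highest for both genes, and the survival controls had sums of 5475 to 27347 with Hk3 at 147 to 220. None of the neutrophil markers was called in the survival arm. With the non-T-cell marker score in the fit, the acute log2 change of Hk3 was 0.29 (limma adjusted p = 0.962) where it had been 3.65. The score did not overlap between the acute groups, and whether the leukemic cells themselves changed Hk3 or Slc16a3 was not tested.

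**Figure D5:**
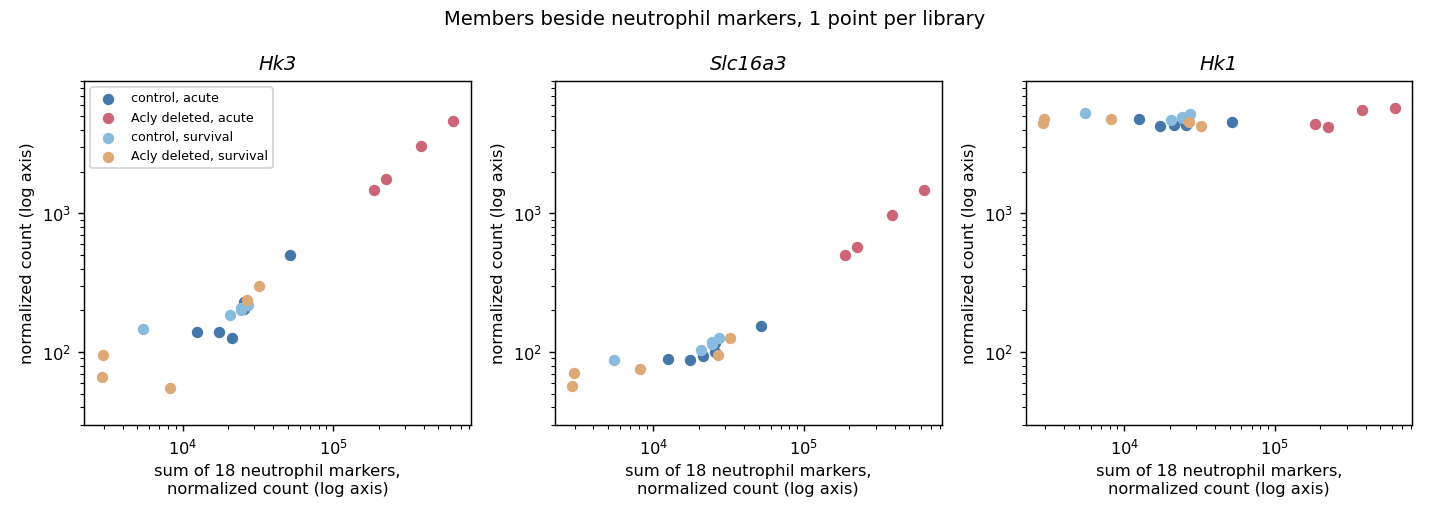
Hk3, Slc16a3 and, for comparison, Hk1 (y axes, normalized counts, log scale) against the summed level of 18 neutrophil markers (x axis, normalized counts, log scale) in all 20 libraries by group. The 4 acute knockouts lie at sums of 186078 or more, apart from the other 16 libraries, which lie at 51645 or less. They lie at the upper right for Hk3 and Slc16a3, while for Hk1 knockouts 1 and 4 lie within or below the range of acute controls.

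Per kilobase of the longest protein-coding transcript (GENCODE M21 lengths), the levels of the members spanned a wide range in acute controls. Gapdh led at 26967 ± 1417 normalized counts per kb (SD, n = 6), ahead of Ldha (11540 ± 560) and Pkm (11391 ± 427), which did not differ beyond their spread, and Eno1 (7770 ± 209). Pgk1 (5155 ± 391), Tpi1 (4199 ± 260), Aldoa (3965 ± 153) and Gpi1 (3734 ± 83.1) followed, with Tpi1 and Aldoa within each other's spread. Hk1 (1044 ± 46.2 per kb) was the leading hexokinase and Hk2 (84.3 ± 10.6) and Hk3 (69.4 ± 44.4) overlapped. In acute knockouts Hk3 stood at 851 ± 448 per kb (n = 4), between Hk2 (193 ± 78.6) and Hk1 (1159 ± 181). Slc16a1 (1454 ± 63.5 per kb) exceeded Slc16a3 (24.5 ± 5.84) in acute controls and still did in acute knockouts (1065 ± 64.5 and 203 ± 105). Slc2a3 (255 ± 5.74 per kb) exceeded Slc2a1 (97.1 ± 12.8), and Slc2a6 (5.99 ± 4.01) was the lowest of the 30. With the median transcript length in place of the longest, Pkm ranked first, Gapdh next and Ldha after it, while Slc2a6 still ranked last. Among Gpi1 (18537 per kb), Aldoa (7716), Tpi1 (5602) and Pgk1 (5155) the order in acute controls reversed. In acute knockouts Hk3 was then at 930 and Hk1 at 8536 per kb, so these comparisons depend on the length chosen.

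Other genes of sugar metabolism were taken from 5 lists of 100 genes, of which 78 were tested in the acute arm, 20 higher and 16 lower, and in the survival arm 0 of 78 were called. These counts stand beside the 16.7% of all genes called higher and 14.7% called lower in the acute arm. Of 25 other glycolysis and sugar carrier genes 5 rose and 7 fell (median log2 change -0.01): Adpgk, the ADP-dependent glucokinase, rose from 733 ± 112 (SD, n = 6) to 2728 ± 1241 (n = 4) (log2 change 1.80, limma adjusted p = 0.000151). Emb (embigin, a carrier partner; 0.53) and Tigar (a fructose 2,6-bisphosphatase; 0.48, but 0.19 and not called under quantile normalization) also rose, and Ldhd (D-lactate dehydrogenase; -0.54), Pgam2 (muscle phosphoglycerate mutase; -0.44) and Khk (ketohexokinase; -0.43) fell, and the 3 falls were -0.18, -0.08 and -0.06 after T-cell receptor beta scaling. The calls of Tigar (without knockout 2 or 3), Ldhd (without control 1, 2, 4, 5 or 6 or knockout 2 or 3) and Khk (without control 3 or 4 or knockout 2 or 3) were lost, with limma adjusted p from 0.0525 to 0.134. Of 11 pentose phosphate genes 4 rose and 3 fell (median 0.18). G6pdx and Pgd, the NADPH-making dehydrogenases of the oxidative branch, rose, and Pgls (6-phosphogluconolactonase), which acts between them, fell. G6pdx went from 1569 ± 135 to 5426 ± 2379 (log2 change 1.69, limma adjusted p = 0.000162), Pgd from 3232 ± 290 to 6518 ± 2067 (0.96, limma adjusted p = 0.000796), and Pgls by -0.41 as deposited and -0.039 after T-cell receptor beta scaling. Tkt (transketolase; 0.49) rose. Prps2 (-0.41; -0.038 after that scaling) and Prps1 (-0.25; 0.12 after it), which make phosphoribosyl pyrophosphate, fell as deposited. The calls of Pgls, Prps2 and Prps1 were lost under that scaling and without knockouts 2 and 3 (limma adjusted p = 0.0752, 0.0596 and 0.135).

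Of 17 glycogen genes 8 rose and 0 fell (median 0.39 against -0.02 for all genes). Pygl, a glycogen phosphorylase of liver and leukocytes, rose from 315 ± 121 (SD, n = 6) to 4292 ± 2310 (n = 4), a log2 change of 3.68 (limma adjusted p = 3.84e-05), Ppp1r3d, a glycogen-targeting phosphatase subunit, from 11.1 ± 3.32 to 155 ± 75.5 (3.63, limma adjusted p = 3.84e-05) and Gys1, glycogen synthase, from 507 ± 31.1 to 964 ± 324 (0.87, limma adjusted p = 0.00192). Of 6 gluconeogenesis genes 1 rose and 2 fell (median -0.03): Pck2, the mitochondrial phosphoenolpyruvate carboxykinase, rose (1.72, limma adjusted p = 0.00684; 0.86 without knockouts 2 and 3, limma adjusted p = 0.117) and Fbp1, fructose 1,6-bisphosphatase, fell from 1096 ± 81.2 to 624 ± 126 (-0.83, limma adjusted p = 0.000243; -0.46 after T-cell receptor beta scaling). Of 19 regulators 2 rose and 4 fell (median 0.03). Myc fell from 8513 ± 994 to 5860 ± 836 (-0.54, limma adjusted p = 0.00186; -0.17 after T-cell receptor beta scaling), as did the prolyl hydroxylases of hypoxia-inducible factor Egln3 (-0.55, limma adjusted p = 0.000225; -0.18 and not called after that scaling) and Egln1 (-0.21, limma adjusted p = 0.00708; 0.16 after that scaling). Prkaa1, a catalytic subunit of AMP-activated kinase, rose by 0.24 (limma adjusted p = 0.0475), a call lost without any 1 of the 6 controls or without knockout 2, 3 or 4. These genes rose and fell in the same libraries in which the markers of other cells were higher, and their part in these changes was not tested.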

How the data were processed

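Strand-specific polyadenylated RNA libraries were made from spleen suspensions after red cell lysis, per the labels' protocols. The authors deposited 1 table per arm with a signal of DESeq-normalized counts per gene and library. The submitters' processing notes name kallisto 0.46.0, DESeq and build GRCm39; the annotation and any filter are not stated there. Read depth is unknown, and genes were matched by symbol. On log2(normalized count + 1), genes reaching 10 in 4 (acute) or 5 (survival) libraries were tested with limma 3.58.1 in R 4.3.3 (mean-variance trend, group means), adjusted by Benjamini-Hochberg over all genes tested and called at 0.05. The fits were checked on simulated data. Isoform ratios were compared by exact permutation. All 30 members and Acly were named. Of each other list, up to 3 called genes per direction with the largest change were named. Only genes with a mean of at least 50 over all libraries of the arm were eligible. A further marker list is not reported here. Members and lists were chosen with earlier results of these data known. Alternatives covered the pseudocount, filter, scaling, variance estimate, covariate, replicate block and left-out libraries. Promoters came from RefSeq (GRCm38.p6), transcript lengths from GENCODE M21, and plots from matplotlib 3.10.9 (pandas 2.3.3, numpy 2.4.6, Python 3.11.15).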

Additional observations from a re-analysis of the deposited data

Results flagged for a closer look

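The survival change differed from the acute change in 6 members by the test of the difference itself (limma, over all 20 libraries): Slc2a3 (-0.995), Hk3 (-4.30), Gpi1 (-0.45), Pfkfb4 (-2.77) and Slc16a3 (-3.34) had the lower survival change, and Slc16a1 (0.47) the higher one.

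A single library lay far from its group, by the gap to its nearest neighbour as a share of the group's range, in 15 of 120 groups of member values. Independent, normally distributed values would give about 1 in 20. These groups share the same libraries, so no excess is read from the count. In acute controls, Aldoc (766 normalized counts, next 244), Eno2 (322, next 105), Pfkm (1455, next 1309) and Ldhb (2225, next 1970) were high in control 1, Hk3 (503, next 229) and Gpi1 (11235, next 10760) were high in control 2, Aldoa (5683, next 6098) was low in control 3, and Bpgm (1271, next 1016) was high in control 4. In acute knockouts, Eno2 (136, next 72.7) was high in knockout 2 and Pfkp (2294, next 2044) in knockout 3. In survival controls, Aldoc (294, next 172) and Eno2 (138, next 83.2) were high and Pgk1 (8664, next 10451) was low in control 4, Slc2a1 (221, next 321) was low in control 2, and Eno1 (18588, next 15795) was high in control 5. Aldoc and Eno2, which share a known expression in brain, were far off in the same library in each arm.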

How the results depend on the processing

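The survival counts of members and of other pathway genes were 0 under every alternative run. With the non-T-cell marker score as a covariate, which did not overlap between the acute groups, every count fell to 0: members higher and lower in the acute arm, other pathway genes higher and lower, and members with a higher or lower survival change. T-cell receptor beta scaling gave 17 members higher and 0 lower, 44 and 2 other pathway genes, and 0 and 18 members with a higher and lower survival change. That scaling moves the difference of all genes downward, since summed T-cell receptor beta RNA was lower in acute knockouts and higher in survival knockouts. Its survival means were 53481 in controls and 57708 in knockouts. The share of all genes with a lower survival change was not taken under it, so the 18 is not read as a trait of the members. Acly was -0.089 under that scaling and -0.78 with the covariate, neither called. Quantile normalization gave 3 members with a higher survival change. Without acute knockouts 2 and 3, 11 other pathway genes were higher and 6 lower. Leaving out 1 library gave 1 to 2 members with a higher survival change, 0 to 6 higher acute ratios, 0 to 1 lower acute ratios and 0 to 1 lower survival ratios; with 1 knockout fewer the exact test has fewer arrangements. The causes of the other shifts were not tested.

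Of the values called as deposited or under the alternative, acute log2 changes turned sign under T-cell receptor beta scaling, whose construction raises all genes, for Pfkm (0.11), Pfkp (0.35), Tpi1 (0.0021), Gapdh (0.36), Pgk1 (0.33), Bpgm (0.0805), Ldha (0.17), Ldhb (0.11), Bsg (0.30), Prps1 (0.12) and Egln1 (0.16). The differences between arms did so for Pfkp (-0.43), Slc16a1 (-0.0091) and Bsg (-0.44). With the covariate, acute changes turned for Slc2a3 (-0.10), Slc2a6 (-0.088), Hk2 (-0.39), Gpi1 (-0.21), Pfkfb3 (-0.34), Aldoa (-0.30), Pgam1 (-0.20), Bpgm (0.0027), Adpgk (-0.092), Emb (-0.0804), Tigar (-0.29), Ldhd (0.61), Khk (0.032), G6pdx (-0.096), Pgd (-0.33), Tkt (-0.29), Prps2 (0.13), Gys1 (-0.24), Pck2 (-0.89) and Prkaa1 (-0.21). The differences turned for Slc2a3 (0.19), Gpi1 (0.16) and Pfkfb4 (0.085). None of the values with the covariate passed the threshold. Another 106 values, called neither as deposited nor under the alternative, also had the other sign under some alternative.

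Replicate numbers are shared by name only: same-numbered libraries correlated by -0.066 to 0.14 in the acute arm and -0.02 to 0.13 in the survival arm, over 0.1 in 2 of 4 and 1 of 5 pairs, and 1 of 4 and 0 of 5 matched best with their own number. With the replicate block the members' counts stayed within 1.5 times and 10 other pathway genes were lower instead of 16, while the calls of Aldoa, Pgam1 and Ldha, and of Tigar, Ldhd, Khk, Prps1 and Prkaa1, were lost.

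Read depth is unknown, so no counting interval is given, and Slc2a6 and Pfkfb1, at means of 12.8 and 26.7 in acute controls, are the members with the lowest values.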

Other observations

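The 30 members together made up 0.763 to 0.936% of the normalized counts of a library, 0.85 ± 0.0133% (SD, n = 6) in acute controls and 0.856 ± 0.0622% (n = 4) in acute knockouts.

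Several members have processed copies in the mouse genome that share their sequence and could take or lend reads. Of the copies listed in the tables, Ldhb-ps was the largest relative to its gene, at 37.4 normalized counts in acute controls or 1.91% of Ldhb, followed by Aldoart2 (46.6, 0.758% of Aldoa) and Gpi-ps (24.5, 0.228% of Gpi1). None of the copies tested was called in the acute arm, where Gpi-ps changed by 0.67 (limma adjusted p = 0.0554).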
